A study of Arabidopsis thaliana with 12 samples.

Results

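The RNA PROCESSING FACTOR (RPF) genes of *Arabidopsis* encode pentatricopeptide repeat (PPR) proteins, and the genes described here are RPF2 (AT1G62670) and its close relatives on chromosome 1. The set was given as 10 loci of the RPF2 clade that are known targets of miR161 and of the secondary small RNAs made downstream of it, and its members were found by matching these locus codes to the probe sets of the array. Of the 10 loci, 9 have a probe set among the 27827 measured, and AT1G62590 (PPR-AC) has none, so no value is given for it. RNA was measured in 4 groups of 3 arrays each: *dcl1-9* leaves in darkness, WT leaves in darkness, *dcl1-9* leaves in light and WT leaves in light. All plants were in the Columbia (Col-0) background and 4 to 5 weeks old, and detached true leaves 5 to 7 were floated on water for 6 h at 22 °C, with the dark treatment beginning soon after the onset of the day. The *dcl1-9* allele is a T-DNA insertion in DCL1 found in Wassilewskija and backcrossed 5 times to Col-0. It lowers the function of DCL1 without removing it, and the homozygous mutants, the offspring of heterozygous plants, were recognized by phenotype. The 3 arrays of each group are biological replicates.

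PPR proteins are RNA-binding proteins, most of which act in mitochondria or chloroplasts, where each repeat contacts a base of the bound transcript. RPF proteins belong to a branch related to the fertility restorers of other plants and mark the sites at which the 5′ ends of particular mitochondrial mRNAs are cut. The branch is also a known source of secondary small RNAs. MIR161 gives overlapping miRNAs, miR161.1 and miR161.2, that are made by DCL1 and cut many PPR mRNAs of this branch, as do miR400 and small RNAs from the TAS transcripts that miR173 cuts, and the cut PPR mRNAs are copied by RDR6 with SGS3 and diced by DCL4.

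The members lie within 809.8 kb of chromosome 1, from position 23176930 to 23986762 of the TAIR10.1 assembly in the RefSeq annotation, which calls all of them protein-coding. From the lower to the higher coordinate they are AT1G62590 (23176930 to 23179248), RPF2 (23204256 to 23206822), NG1 (AT1G62720, 23227532 to 23229150), RFL9 (AT1G62910, 23298948 to 23301141), RPF3 (AT1G62930, 23306534 to 23308686), AT1G63080 (23387574 to 23390838), RPF6 (AT1G63130, 23412518 to 23415155), AT1G63150 (23419294 to 23421714), AT1G63400 (23507178 to 23509484) and AT1G64580 (23984790 to 23986762). RPF6 and AT1G63150 are close neighbors, whereas AT1G64580 stands far from the others. The stretch holds 211 probe sets, of which 9 belong to the members, 8 to other RPF-like PPR genes, 1 to another gene annotated as PPR and 193 to other genes. The members are related in sequence, and whether probes of one member also bind transcripts of another was not tested.

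Values are linear array intensities, which have no depth, so that the number of arrays limits the precision. The members gave weak signals. Of the 9 measured members, 7 (77.8%) had a mean intensity under 20 over the 12 arrays, against 34.8% of all probe sets. The median of each array lay between 29.96 and 34.54, and the median coefficient of variation was 14.7 to 17.1% within groups. The summed intensities of 5 mesophyll genes, none of them called between genotypes, were 5717 to 6147 in *dcl1-9* and 4708 to 5624 in WT leaves in darkness. In light they were 6456 to 7962 in *dcl1-9* and 6677 to 8346 in WT leaves. These genes did not move together. LHB1B2 had all *dcl1-9* arrays below the WT arrays, with log2 differences of -0.67 in darkness and -0.78 in light. RBCS1A, CA1 and RCA had them all above in darkness, by 0.21, 0.33 and 0.49, and overlapped in light. CAB3 overlapped under both conditions. The DCL1 probe set was higher in *dcl1-9* than in WT leaves, by 1.36 in darkness and 1.08 in light on the log2 scale (adjusted p = 0.00093 and 0.0039), and does not check the genotype labels, since the position of its probes relative to the insertion was not used here. Differences below are differences of mean log2 intensity with their standard errors (SE), and a gene is called where its p from limma, adjusted over all probe sets, was under 0.05.

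In *dcl1-9* leaves, 2 of the 9 measured members stood above the WT in darkness and 4 in light, and none stood below. RPF2 and AT1G63150 were higher under both conditions, and RPF6 and AT1G63400 were called in light. Over all probe sets, 4.45% were called higher in *dcl1-9* in darkness and 5.92% in light, and 3.02% in darkness and 3.33% in light were called lower. The median difference of the 9 members was 0.28 in darkness and 0.88 in light, beside medians of -0.12 and -0.14 over all probe sets. As the probe set values come from whole leaves, a change in the share of a cell type and a change in RNA per cell cannot be told apart.

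**Figure D1:**
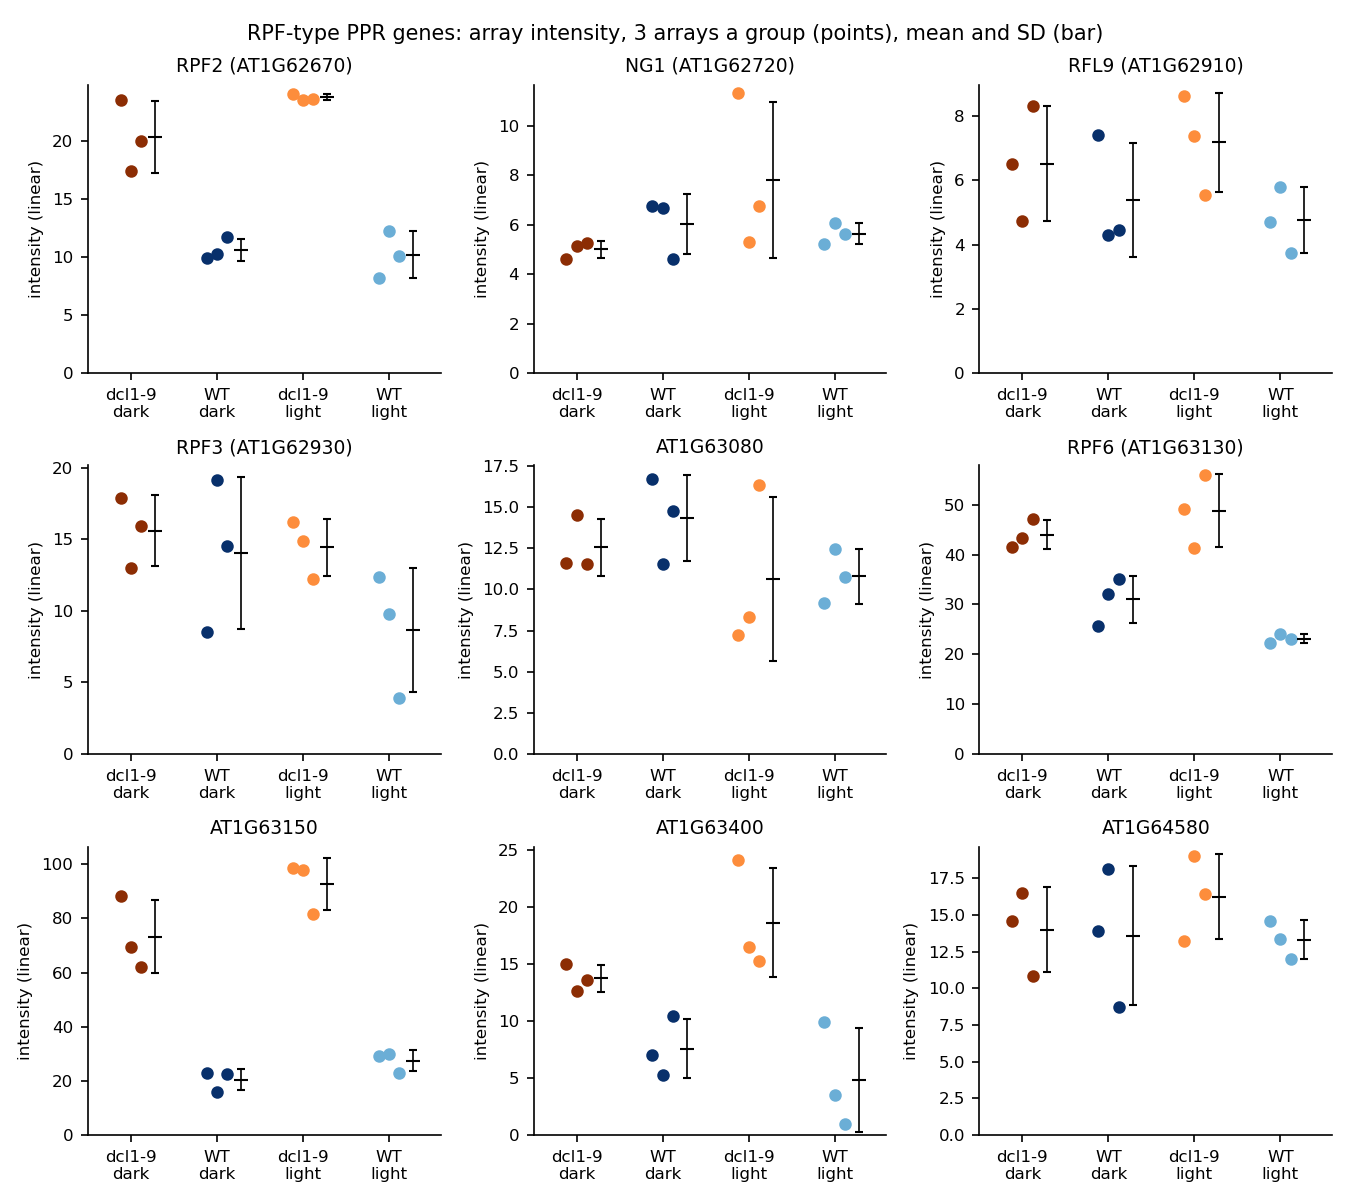
Array intensity (linear, each panel with its own axis from 0) of the 9 members with a probe set in *dcl1-9* and WT leaves kept 6 h in darkness or light. Points are the 3 arrays of a group and bars the mean and SD. The *dcl1-9* arrays of RPF2, RPF6, AT1G63150 and AT1G63400 all lie above the WT arrays in darkness and in light, and those of the other members overlap with the WT.

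RPF2 directs the 5′ processing of cox3 and nad9 transcripts in mitochondria. In darkness its intensities were 23.54, 17.41 and 20.01 in *dcl1-9* leaves and 9.91, 10.28 and 11.68 in WT leaves. In light they were 24.06, 23.56 and 23.63 in *dcl1-9* leaves and 8.22, 12.25 and 10.08 in WT leaves. Each mutant array was above each WT array under both conditions, and the 3 mutant arrays in light lay close together. The difference was 0.93 ± 0.20 in darkness (SE, n = 3 arrays a group; 1.9-fold, adjusted p = 0.014 from limma) and 1.24 ± 0.20 in light (SE, n = 3; 2.36-fold, adjusted p = 0.0030). Without *dcl1-9* dark replicate 1 the dark difference was 0.82 and missed the test (adjusted p = 0.085 from limma). The mutant arrays left, at 17.41 and 20.01, were still above all WT arrays in darkness.

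AT1G63150, whose mRNA is an experimentally supported target of miR161.1 and miR161.2, had the smallest adjusted p-values of the members. Its intensities were 88.47, 69.33 and 62.17 in *dcl1-9* and 22.99, 15.90 and 22.61 in WT leaves in darkness. In light the *dcl1-9* arrays gave 98.57, 97.85 and 81.62 and the WT arrays 29.32, 29.97 and 22.88. The groups were far apart, with the lowest mutant array at 62.17 and the highest WT array at 29.97 over both conditions. The difference was 1.84 ± 0.20 in darkness (SE, n = 3; 3.59-fold, adjusted p = 0.00020) and 1.76 ± 0.20 in light (SE, n = 3; 3.40-fold, adjusted p = 0.00021).

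RPF6 is needed for the 5′ processing of nad6 mRNA. Its intensities were 41.46, 43.33 and 47.19 in *dcl1-9* and 25.77, 32.09 and 35.17 in WT leaves in darkness. In light they were 49.09, 41.32 and 56.04 in *dcl1-9* and 22.19, 24.09 and 23.17 in WT leaves. The groups did not overlap under either condition, and the gap was wider in light. The difference missed the test in darkness at 0.51 ± 0.17 (SE, n = 3; adjusted p = 0.085) and passed it in light, where it was 1.07 ± 0.17 (SE, n = 3; 2.09-fold, adjusted p = 0.0032). With the replicate number as a block, the difference in darkness passed the test as well (adjusted p = 0.044).

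AT1G63400, an experimentally supported target of miR161.2, had 14.99, 12.65 and 13.56 in *dcl1-9* and 7.0, 5.30 and 10.41 in WT leaves in darkness. In light it had 24.08, 16.47 and 15.26 in *dcl1-9* and 9.87, 3.51 and 1.00 in WT leaves, the last being the lowest value that the deposited files hold. The mutant arrays were above the WT arrays under both conditions, but the WT arrays in light were widely scattered. The difference was 0.91 ± 0.57 in darkness (SE, n = 3; adjusted p = 0.32) and 2.48 ± 0.57 in light (SE, n = 3; 95% interval 1.26 to 3.70; adjusted p = 0.017). The size in light depends on the WT arrays and on the scale, so no fold is given. The difference was 0.75 with log2(value + 16) (adjusted p = 0.0066). On the log2 scale without an offset it was 1.63 without WT light replicate 3, the array at 1.00 (adjusted p = 0.045), and 3.28 without WT light replicate 1. Without *dcl1-9* light replicate 1 the difference was 2.28 and without replicate 2 it was 2.56, close to the value from all arrays, with adjusted p-values just past the threshold at 0.054 and 0.051.

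The other 5 members did not pass the test under either condition. RPF3, which acts on the 5′ end of ccmC mRNA, had 17.90, 13.01 and 15.91 in *dcl1-9* and 8.52, 19.13 and 14.54 in WT leaves in darkness, with a difference of 0.21 (95% interval -0.60 to 1.03). In light RPF3 had 16.18, 14.91 and 12.24 in *dcl1-9* and 12.37, 9.78 and 3.88 in WT leaves. There the highest WT array lay just above the lowest mutant array, and the difference was 0.88 ± 0.38 (SE, n = 3; adjusted p = 0.14). RFL9, which directs cleavage within rps3-rpl16 and orf240a transcripts, had 6.52, 4.73 and 8.31 in *dcl1-9* and 7.43, 4.29 and 4.45 in WT leaves in darkness. Its arrays in light gave 8.62, 7.40 and 5.56 in *dcl1-9* and 4.72, 5.80 and 3.75 in WT leaves, and the difference there was 0.60 (95% interval -0.07 to 1.26; adjusted p = 0.22). All arrays of RFL9 lay at the dim end of the scale and overlapped between genotypes. NG1 spanned 4.61 to 5.25 in *dcl1-9* and 4.61 to 6.76 in WT leaves in darkness, and 5.31 to 11.34 in *dcl1-9* and 5.22 to 6.09 in WT leaves in light. The high value of 11.34 came from 1 array, *dcl1-9* light replicate 1. For AT1G63080 the difference was -0.18 in darkness (95% interval -0.79 to 0.43) and -0.11 in light (95% interval -0.72 to 0.50). For AT1G64580, the outlying gene of the stretch, it was 0.08 in darkness (95% interval -0.49 to 0.65) and 0.28 in light (95% interval -0.29 to 0.85). In light the intervals of these 5 members all reached 0.50 or higher. With 3 arrays a group, rises up to that size were therefore not excluded for any of them, and larger estimates such as that of RPF3 also missed the test.

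The arrays of the genotypes did not overlap, with *dcl1-9* above, for 4 of the 9 members in darkness and 4 in light, the same genes each time (RPF2, RPF6, AT1G63150 and AT1G63400). Of all probe sets, 13.0% in darkness and 13.2% in light were apart in that direction. Relative to the median difference of all probe sets, the light difference was 1.38 for RPF2, 1.2 for RPF6, 1.9 for AT1G63150 and 2.62 for AT1G63400. All 9 members were above that median in light and 7 of 9 in darkness. Under the criterion of the study's methods, in which the lower 90% confidence bound of the fold-change has to exceed 1.2, RPF2, AT1G63150 and AT1G63400 were higher in *dcl1-9* in darkness, and these with RPF6 in light, where 6.23% and 7.13% of all probe sets passed in that direction.

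**Figure D2:**
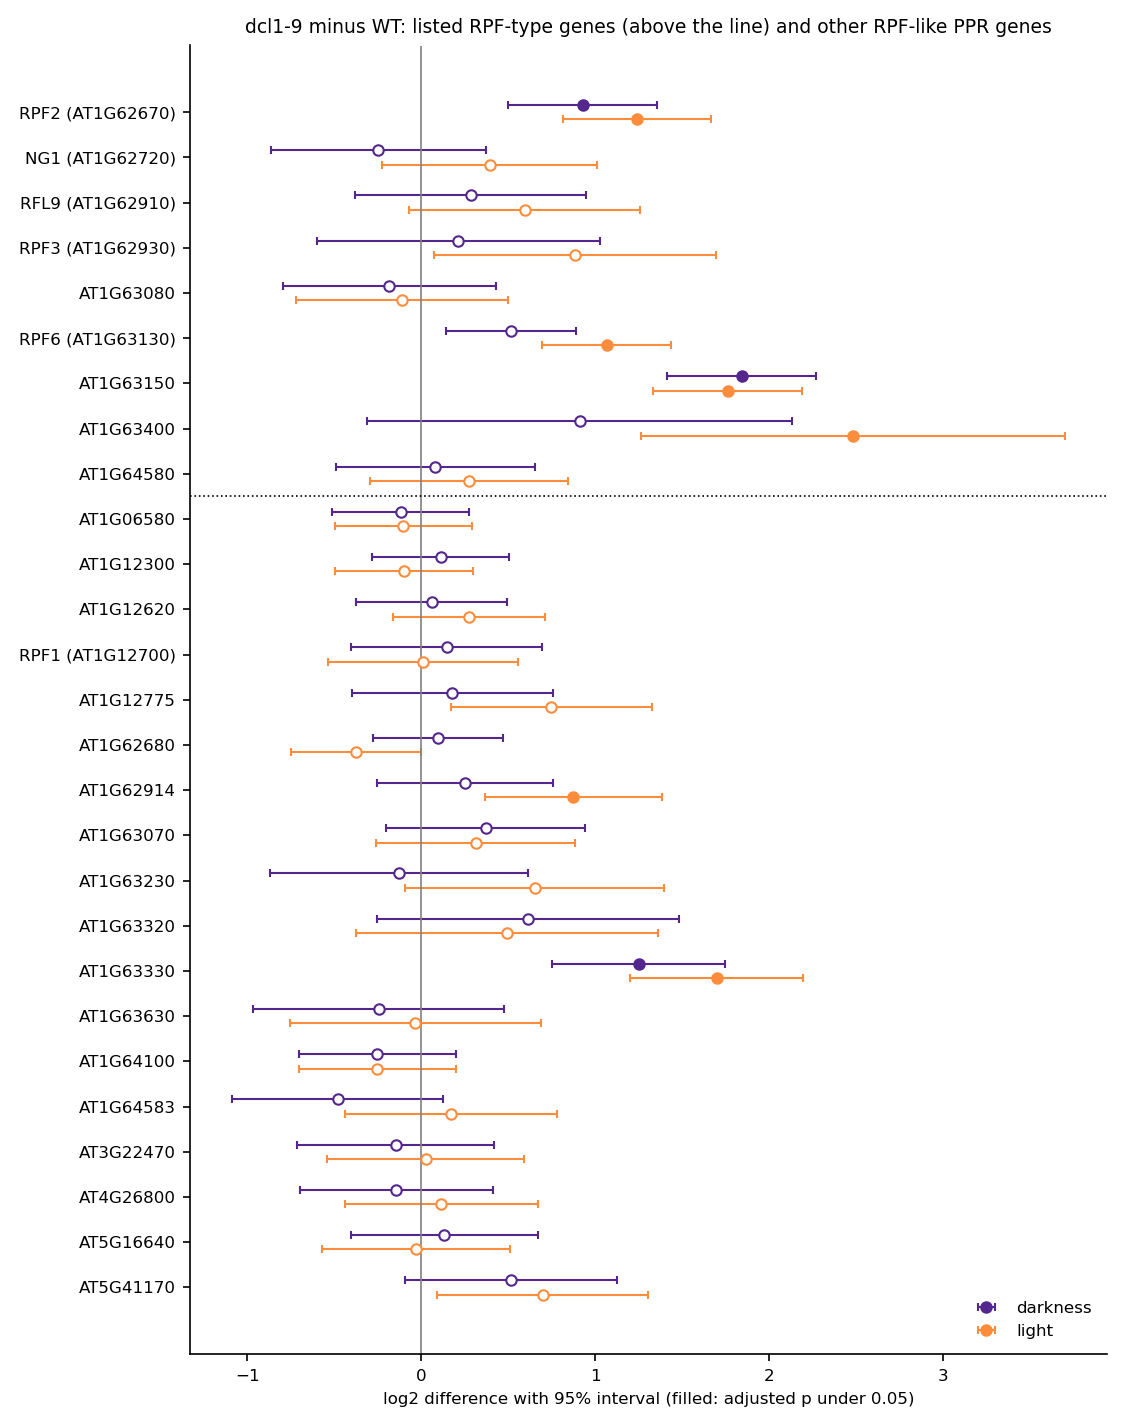
Log2 difference of *dcl1-9* minus WT (x axis) with its 95% interval, in darkness and in light, for the 9 members (above the dotted line) and 18 other RPF-like PPR genes (below it). Filled points passed the adjusted threshold: 2 members in darkness and 4 in light, and below the line AT1G63330 under both conditions and AT1G62914 in light.

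Other RPF-like PPR genes of the same branch were read in the same way. Of 19 listed, 18 have a probe set, and 1 was higher in *dcl1-9* in darkness and 2 in light, with none lower. These are 5.56% and 11.1% of the 18, beside 4.45% and 5.92% of all probe sets called higher. The medians of the 18 were 0.10 and 0.14. AT1G63330, at 23489805 to 23491981 between AT1G63150 and AT1G63400, had 50.61, 55.12 and 35.19 in *dcl1-9* and 19.68, 20.75 and 17.86 in WT leaves in darkness. In light it had 50.55, 66.94 and 62.41 in *dcl1-9* and 20.07, 23.45 and 13.12 in WT leaves. Its mutant arrays stood above all WT arrays, by 1.25 in darkness and 1.70 in light (adjusted p = 0.0071 and 0.0011), much as for AT1G63150. AT1G62914, which follows RFL9 on the chromosome, was higher in light by 0.87 (adjusted p = 0.035), with 44.22 to 54.52 in *dcl1-9* and 24.83 to 30.36 in WT leaves, whereas in darkness the genotypes overlapped. AT1G62680, the PPR gene directly beside RPF2, differed by 0.10 in darkness and -0.37 in light (adjusted p = 0.75 and 0.18 from limma). In light its *dcl1-9* arrays (20.05 to 20.55) all lay below its WT arrays (22.42 to 31.91). RPF1 (AT1G12700), which processes nad4 mRNA and lies elsewhere on chromosome 1, differed by 0.15 in darkness and 0.01 in light. AT1G06580, a listed target of miR161.1 and miR400 outside the stretch, differed by -0.12 and -0.10. Also outside it, AT1G12775 and AT5G41170 had all *dcl1-9* arrays above the WT arrays in light but overlapped in darkness. They differed in light by 0.75 and 0.70, without a call (adjusted p = 0.092 and 0.13 from limma). Of the 18 genes, 1 in darkness and 4 in light had all mutant arrays above the WT, beside 13.0% and 13.2% of all probe sets. In light 1, AT1G62680, had them all below, beside 5388 of 27827 probe sets.

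Among 243 other genes annotated as PPR, 5 were higher and 1 lower in *dcl1-9* in darkness, and 10 were higher and none lower in light. The higher calls were 2.06% and 4.12% of the 243, beside 4.45% and 5.92% of all probe sets. The medians of the 243 were -0.00027 and 0.02. The deposited annotation used for this is incomplete, as it describes RPF3, RPF6 and AT1G63150 as tetratricopeptide-like. Other PPR genes described so are not among the 243. Of the 193 other genes that lie between the outermost members, 9 were higher and 6 lower in darkness and 14 higher and 8 lower in light. The higher calls were 4.66% and 7.25% of the 193. The lower calls were 3.11% and 4.15%, beside 3.02% and 3.33% of all probe sets. The medians of the 193 were -0.10 and -0.12, close to those of all probe sets. Along the chromosome, called members and called genes from these 193 were interspersed. Any PPR gene of the stretch described as tetratricopeptide-like would count among the 193.

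**Figure D3:**
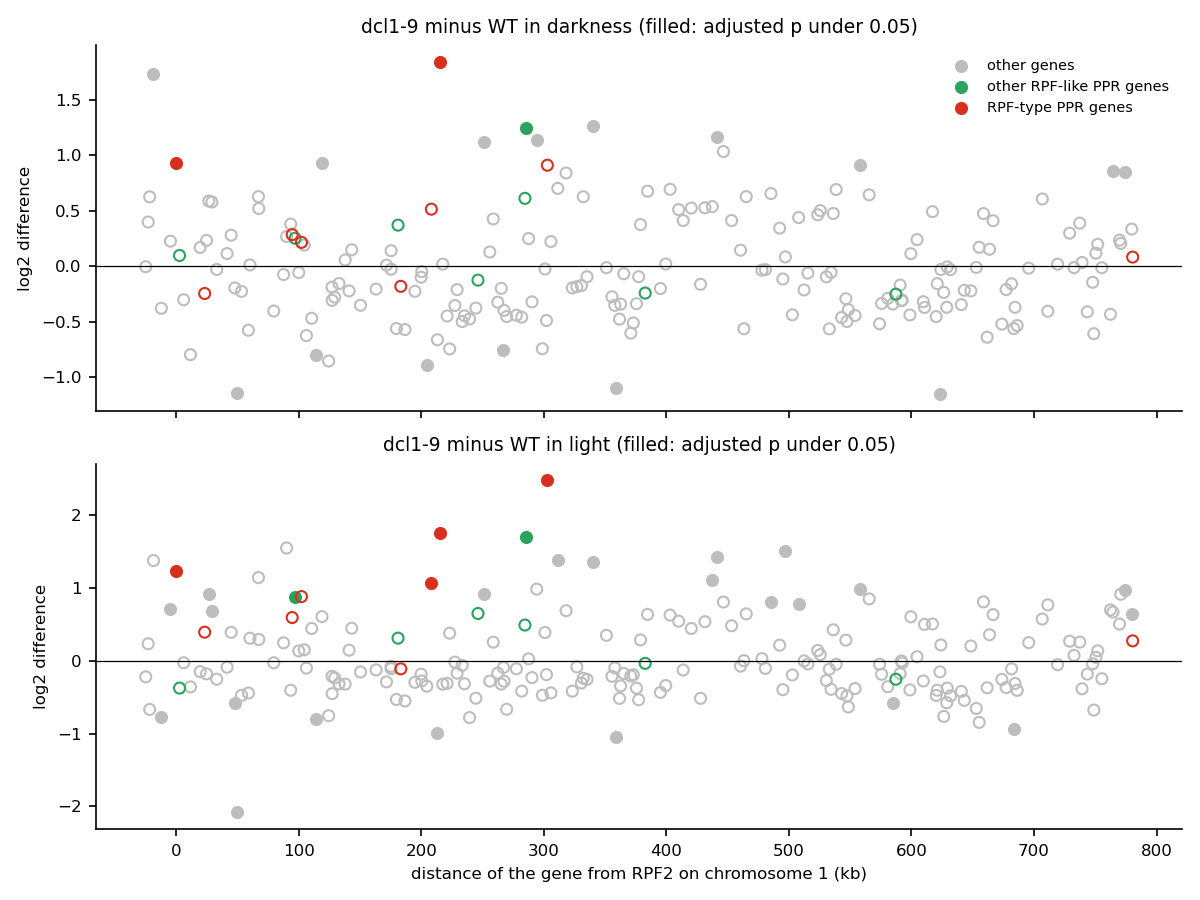
Log2 difference of *dcl1-9* minus WT (y axis) against the distance from RPF2 in kb along chromosome 1 (x axis), in darkness (upper panel) and light (lower panel), for the 211 probe sets of the stretch. Filled points passed the adjusted threshold. RPF6, AT1G63150, AT1G63330 and AT1G63400 lie in the left part of the panels, among other genes on both sides of 0. Between them lie RPF-like genes that were not called, and RPF6 and AT1G63400 were not called in darkness.

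Darkness itself left the members without a called change in either genotype, while 23.7% of all probe sets responded in *dcl1-9* and 27.4% in the WT. At an unadjusted p under 0.05 from limma, 0 members passed in *dcl1-9* and 1 in the WT. Of all 27827 probe sets, 9301 passed at that threshold in *dcl1-9* and 10032 in the WT. The criterion of the study's methods called 0 members in both, beside 23.1% of all probe sets in *dcl1-9* and 23.8% in the WT. The median dark response of the members was -0.22 in *dcl1-9* and 0.16 in the WT, beside 0.06 over all probe sets in each. RPF2 differed by -0.24 in *dcl1-9* (95% interval -0.66 to 0.19) and 0.08 in the WT (95% interval -0.35 to 0.50). In *dcl1-9*, 3 of the 9 members (RPF2, NG1 and AT1G63400) had all dark arrays below all light arrays, beside 5460 of 27827 probe sets. NG1 had the most negative estimate there, -0.57 (adjusted p = 0.19 from limma). In the WT 0 members had them all below and 1 all above, beside 5095 and 5399 probe sets. RPF6 had the smallest unadjusted p of the members in the WT, where all dark arrays (25.77 to 35.17) were above all light arrays (22.19 to 24.09) with a difference of 0.41 ± 0.17 (SE, n = 3; adjusted p = 0.10 from limma). Without WT dark replicate 1 this was 0.54 with an adjusted p of 0.048. AT1G63400 differed by 1.16 in the WT (adjusted p = 0.16), and without WT light replicate 1 by 1.96 with an adjusted p of 0.0056. AT1G63150 differed by -0.35 in *dcl1-9* and -0.43 in the WT (adjusted p = 0.25 and 0.14), with the opposite sign from RPF6 and AT1G63400 in the WT.

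**Figure D4:**
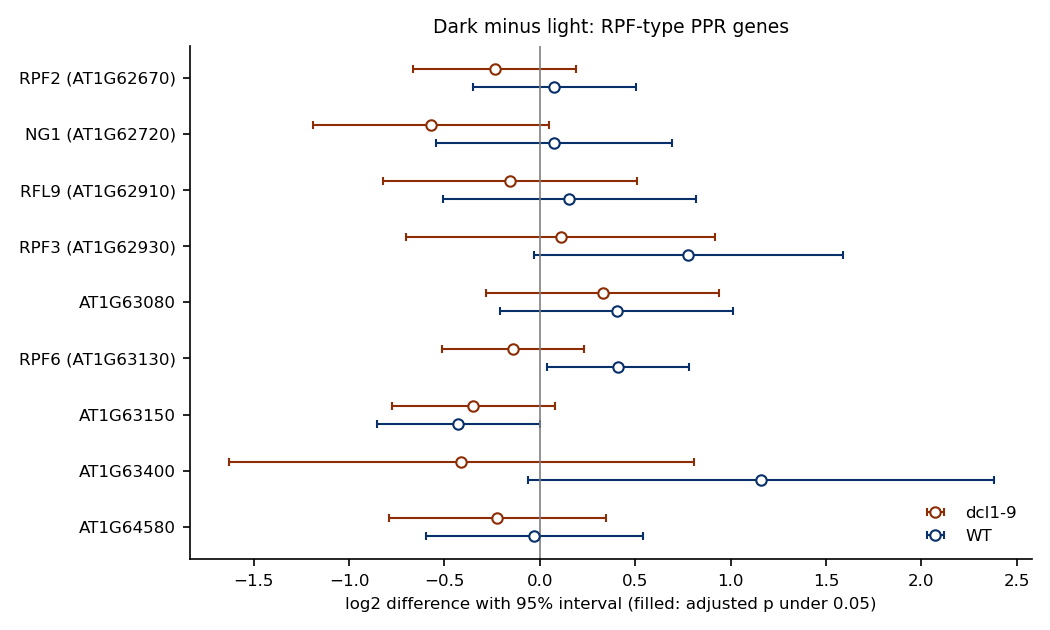
Log2 difference of dark minus light (x axis) with its 95% interval for the 9 members in *dcl1-9* and WT leaves. No point is filled, since no member passed the adjusted threshold, and estimates run from -0.57 to 0.33 in *dcl1-9* and from -0.43 to 1.16 in the WT.

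The dark responses of the genotypes were set against each other in the same fit. The response in *dcl1-9* minus that in the WT was not called for any member, and over all probe sets 0.104% were called. It was negative for 8 of the 9 members, with a median of -0.31, a count that rests on the same arrays as the comparisons above. RPF6 came nearest, at -0.55 ± 0.25 (SE; unadjusted p = 0.042, adjusted p = 0.84), and AT1G63400 had the most negative value, -1.57 ± 0.81 (SE; adjusted p = 0.92). A wider genotype gap in light than in darkness was therefore not shown for either gene. In *dcl1-9*, 4 of the 243 other PPR genes rose in darkness and 39 fell, and in the WT 7 rose and 35 fell, while none of the 18 other RPF-like genes was called.

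The genes that make the small RNAs acting on this branch were followed on the same arrays. The MIR161 probe set (AT1G48267), which reads the precursor transcript and not the mature miRNA, had 38.75, 39.00 and 44.55 in *dcl1-9* and 11.66, 11.42 and 10.27 in WT leaves in darkness. In light it had 87.14, 50.06 and 72.32 in *dcl1-9* and 16.44, 19.00 and 20.13 in WT leaves. All 4 groups were apart from each other. The genotype difference was 1.87 in darkness and 1.88 in light (adjusted p = 0.00018 and 0.00014), and MIR161 fell in darkness by 0.74 in *dcl1-9* and by 0.73 in the WT (adjusted p = 0.014 and 0.013). The members that were higher in *dcl1-9* showed no called dark response beside this fall. MIR400 (AT1G32582) was not called, and its mean in *dcl1-9* light leaves was set by a single array at 43.75 beside 12.24 and 10.63. MIR173 (AT3G23125) was not called in any comparison.

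**Figure D5:**
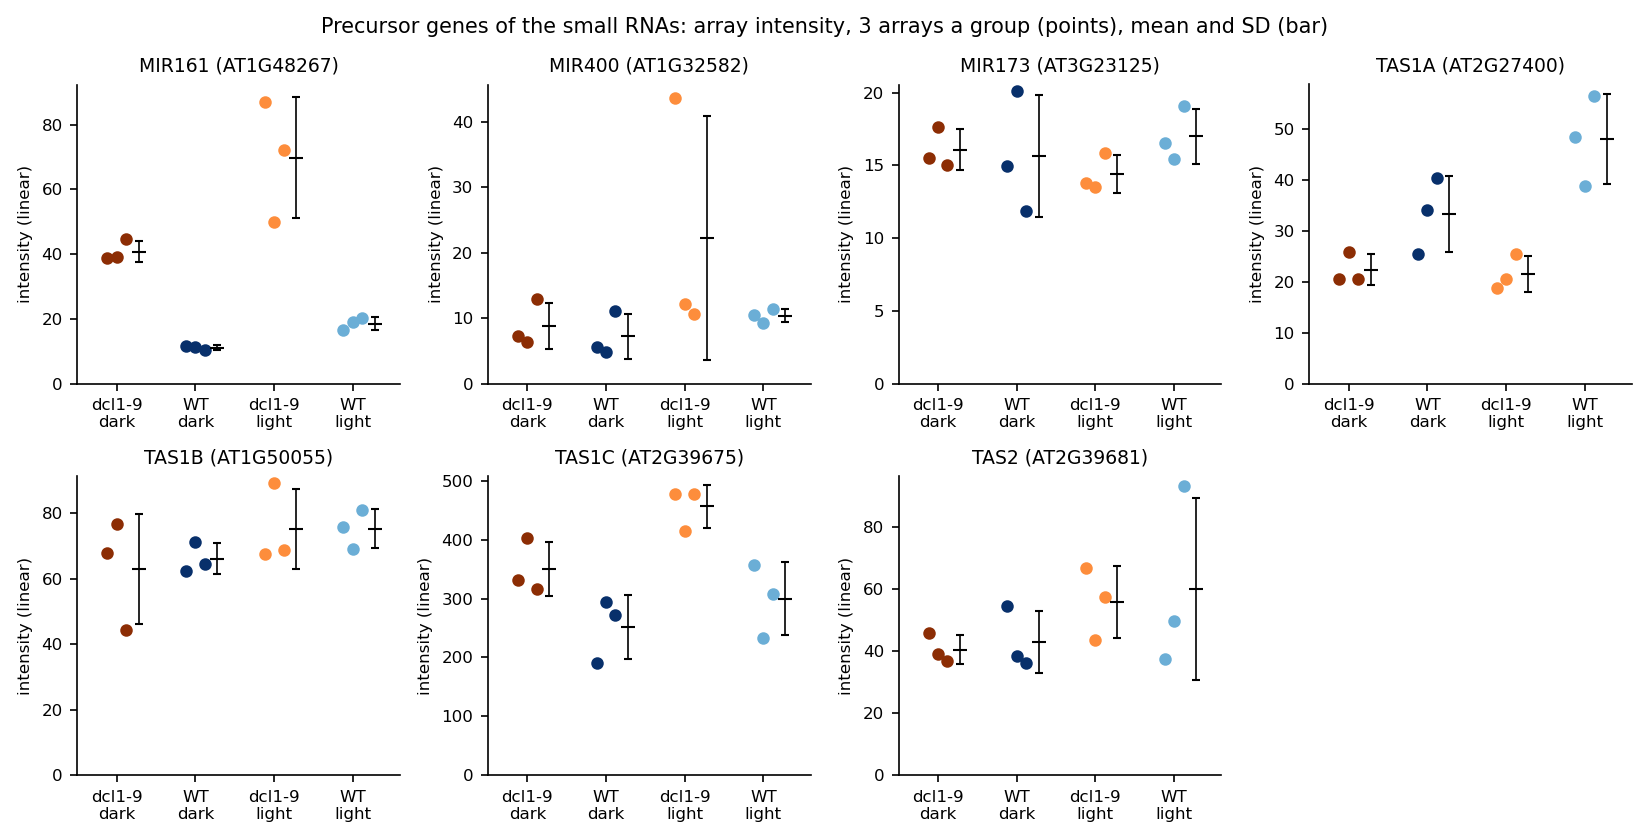
Array intensity (linear, each panel with its own axis from 0) of the precursor genes of miR161, miR400 and miR173 and of the TAS1 and TAS2 genes. Points are the 3 arrays of a group and bars the mean and SD. The MIR161 arrays of *dcl1-9* leaves (38.75 to 87.14) lie above those of WT leaves (10.27 to 20.13), and the TAS1A arrays in light lie below the WT.

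The TAS transcripts did not move together. TAS1A (AT2G27400) differed by -0.56 in darkness (adjusted p = 0.12), and in light it had 18.69, 20.51 and 25.44 in *dcl1-9* and 48.51, 38.92 and 56.59 in WT leaves. Each mutant array in light was below each WT array, with a difference of -1.15 (adjusted p = 0.0065). TAS1C (AT2G39675), with arrays of the mutant above those of the WT under both conditions, differed by 0.49 in darkness and 0.63 in light (adjusted p = 0.12 and 0.052). TAS1B (AT1G50055) and TAS2 (AT2G39681) were not called, and their differences lay between -0.10 and -0.01. Of 4 genes listed for the making of secondary small RNAs, DCL4 was higher in *dcl1-9* by 1.03 in darkness and 0.97 in light (adjusted p = 0.0078 and 0.0097). RDR6 was higher by 0.66 in darkness (adjusted p = 0.020), while AGO1 and SGS3 were not called.

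Mitochondrial transcripts on which RPF proteins act were measured in part. Of 7 listed, 4 have a probe set, and none was called in any comparison. COX3, a target of RPF2, differed by -0.27 in darkness (95% interval -0.74 to 0.19) and 0.05 in light (95% interval -0.41 to 0.51). NAD6, the target of RPF6, differed by -0.21 in darkness (95% interval -0.53 to 0.11) and -0.30 in light (95% interval -0.62 to 0.01). NAD4 and ATP9 differed by at most 0.23 in size. A probe set of this kind gives the amount of a transcript and not the position of its 5′ end, which is the feature that RPF proteins set.

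Over the 12 arrays, the pattern of RPF2 was set against every other probe set by Pearson's r of log2 values, as a description in which arrays of 1 group share their treatment. AT1G63150 was the fifth most like RPF2 of all (r = 0.94, rank 5 of 27826). Above it stood AT1G76380 (a bromodomain protein), MIR166b (AT3G61897), AGL42 (AT5G62165) and CSLG2 (AT4G24000), each also at 0.94. RPF6 (r = 0.90, rank 58) and the neighbor AT1G63330 (r = 0.92, rank 21) followed, then AT1G63400 (0.67), RFL9 (0.61), RPF3 (0.46), AT1G64580 (0.22), NG1 (0.18) and AT1G63080 (-0.20). Over the 36 pairs of members r ran from -0.33 to 0.94 with a median of 0.22.

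Markers of other leaf cell types were read beside these results. The summed intensity of 3 guard cell genes was 238 to 320 in *dcl1-9* and 165 to 238 in WT leaves in darkness. In light it was 292 to 511 in *dcl1-9* and 163 to 307 in WT leaves. The 3 genes did not move together in darkness. MYB60 was called higher in *dcl1-9* in light (0.87, adjusted p = 0.028 from limma) but differed by -0.18 in darkness. KAT1 differed by 1.17 in darkness and 0.85 in light, and FMA by 0.22 and 0.40, without a call. No defining gene of these 3 was at the floor, and the part of guard cells in the members' differences was not tested. Over all arrays the sum of 3 flower genes ran from 31.0 to 61.3 and that of 3 root genes from 37.3 to 94.4, and none of the mesophyll, flower or root genes, nor the single phloem, trichome and shoot meristem genes read, was called between genotypes.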

How the data were processed

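The authors extracted total RNA from leaves, hybridized it to Arabidopsis Gene 1.1 ST array strips and checked the scans in Affymetrix Expression Console, with no version given in the sources used here. The deposited values are linear intensities that the authors made in dChip. An invariant set of probes was used to scale every array to the one of median brightness, only perfect-match probes were modeled, and the Brainarray grouping (version 15) gave each TAIR gene a single probe set. The deposited statistics table also holds other columns, the group means with their standard errors, used here only for the study's criterion, and fold ratios from the authors' own comparisons, which were not used. The number of per-sample columns left out was 0.

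Values under 1 were set to 1 before log2. In limma 3.58.1 (R 4.3.3, statmod 1.5.0), group means of the 4 groups were estimated over 27827 probe sets and 12 arrays, with variances moderated along an intensity trend (8 residual degrees of freedom) with adjustment (Benjamini-Hochberg) across the whole array. The script was tested on simulated data. The contrasts were *dcl1-9* minus WT in darkness and in light, dark minus light in each genotype, and the genotype difference between these responses. For the study's criterion, the lower 90% bound of the ratio of weighted means was recomputed and had to exceed 1.2. Symbols and coordinates are from RefSeq, TAIR10.1. The methods name TAIR10, and 99.3% of 1665 transcript positions in the study's list of starvation genes fell inside the RefSeq gene of the same code.

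The members and lists were chosen with earlier results of these data known. Named genes were all members, the precursor and TAS genes, the mitochondrial targets, other RPF-like genes past the test between genotypes, the 5 probe sets most like RPF2, and DCL1. AT1G62680, RPF1, AT1G06580, AT1G12775, AT5G41170, DCL4, RDR6 and the guard cell and mesophyll genes named singly fall outside that rule. They were named after their values were seen. Replicate numbers paired *dcl1-9* dark with *dcl1-9* light arrays, as the correlations of their deviations from the group means were 0.24 to 0.30, and the block changed no call there. The main fit holds no replicate block. For the other groups compared, whether the numbers pair the arrays was not settled. Between dark and light arrays of the WT the same correlations were 0.039 to 0.24. Alternatives were an offset of 16 before log2, quantile normalization, centring each array on its median, a filter on probe sets of mean intensity under 20, no trend, only the compared groups, the replicate block, each array left out, and the study's criterion. Raw scans and sequences were not used here.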

Additional observations from a re-analysis of the deposited data

How the results depend on the processing

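The members called higher in *dcl1-9* numbered 2 in darkness and 4 in light. With the arrays of the compared groups alone 3 were called in light, where AT1G63400 had an adjusted p of 0.066. Without probe sets of a mean under 20, only RPF6 and AT1G63150 were left to test, and 1 was called in darkness and 2 in light, fewer because fewer members were tested. Leaving out 1 array gave 1 to 2 members in darkness, 3 to 4 in light, 0 to 1 for the dark response of the WT, and 0 each time for the dark response of *dcl1-9* and for the difference of the responses. Of the 6 called differences, AT1G63150 (1.29 to 1.95 in darkness, 1.32 to 1.85 in light), RPF6 in light (0.72 to 1.18) and RPF2 in light (0.61 to 1.40) stayed past the test under each alternative that could test them. RPF2 in darkness (0.45 to 1.13) lost it under 1 of 18 and AT1G63400 in light (0.75 to 3.28) under 3 of 18. The lowest light values of RPF2 and AT1G63400 came with log2(value + 16), which by construction shrinks differences of dim genes. No called difference turned its sign. The weak signal limits the rest, as 7 of 9 members had a mean under 20.

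With the replicate number as a block, 3 members were called in darkness and 4 in light, RPF6 being added in darkness with an adjusted p of 0.044, and 0 in the other comparisons. Between the genotypes, the deviations of same-numbered arrays from their group means correlated at 0.048 to 0.34 in darkness and 0.074 to 0.31 in light, all above 0 but weak for replicate 1. The deposited table gives same-numbered arrays of all groups a common code whose meaning is not stated, so whether the numbers mark a shared experiment was not settled.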
